A study of Haemaphysalis flava with 2 samples.

Results

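Transcripts of the pre-mRNA splicing machinery and of RNA helicases were examined in the hard tick Haemaphysalis flava, in its salivary glands. Contigs of the assembled transcriptome were taken as members when the name of their best-matching protein spoke of splicing, a spliceosome, an snRNP or other ribonucleoprotein, an RNA helicase, a DEAD box or an arginine-rich protein. Names of signal recognition particles, ribosomal proteins, histones and dicer were left out. This gave 159 members of 54357 contigs in all, or of 20145 contigs that carry a protein name. They hold 92 different names and 122 different best-matching proteins, of which the ticks Rhipicephalus pulchellus and Ixodes scapularis supply 133 and 19 contigs. Derived contig lengths ran from 305 to 9713 bases.

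One group was engorged ticks, which had fed to repletion, and the other was semi-engorged ticks, which had fed in part. Each group is 1 polyadenylated RNA library of salivary glands, with 57892372 and 54039984 reads on contigs. The series text counts 50 ticks at each stage and 100 glands, the labels give no treatment, sex or age, and each library was read as a pool. With 1 library per stage, no difference has a replicate check, every value describes these libraries, and intervals cover counting error only. In a bulk library, fewer cells of a type and less RNA per cell cannot be told apart.

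Pre-mRNA splicing removes introns in the nucleus. The U1 and U2 small nuclear ribonucleoproteins (snRNPs) mark the splice sites, the U4/U6.U5 tri-snRNP joins them, and proteins associated with Prp19 help to activate the assembled spliceosome. SR proteins, rich in arginine and serine, mostly promote the use of exons, and heterogeneous nuclear ribonucleoproteins (hnRNPs) package nascent transcripts and often oppose them. DEAD-box and DEAH-box helicases use ATP to remodel RNA, in splicing and also in ribosome assembly, export, translation and decay.

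Most members stood modestly higher in the engorged library. A difference is given as the log2 fold, log2 of engorged over semi-engorged counts per 1000000 reads (CPM), each with 1 added. Contigs at 1 or more were called higher in the engorged library and those at -1 or less higher in the semi-engorged library. Of 155 members with at least 20 reads, 27 (17.4%) were called higher in the engorged library, against 13.0% of all 47965 contigs tested and 15.4% of the 18950 described ones. In the semi-engorged library 5 members (3.23%) were called higher, against 15.5% of all and 16.6% of described contigs. Contigs under 1 CPM in both libraries, 34.2% of all tested, cannot pass this rule. Among contigs with at least 100 reads, 26 of 140 members (18.6%) were called higher in the engorged library, against 20.9% of 13704 described contigs, and 5 (3.57%) in the semi-engorged library, against 21.2%. The engorged share was thus near the background, and the semi-engorged share was below it.

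The spread of the members was narrow. Their median log2 fold was 0.45, against -0.049 over all and 0.012 over described contigs tested. Among contigs with at least 100 reads, the middle 50% of members lay between -0.056 and 0.82, and that of described contigs between -0.77 and 0.87. Members between the thresholds made up 77.9% and described contigs 58.0%. A log2 fold above 0 was seen in 112 members (72.3%) and one below 0 in 43, and 47.7% of all contigs tested were above 0. Among contigs with at least 100 reads, 73.6% of members and 55.0% of described contigs were above 0. Scaling matters at this size of difference. Over contigs of 100 or more reads in each library, the median log2 ratio was 0.23, and with this shift removed the counts were 16 and 8 and the median 0.23. The engorged share was then 10.3% of members and 10.4% of all contigs tested, and the semi-engorged share 5.16% and 17.8%. With totals that left out the 50 most abundant contigs of each library the counts were 40 and 2, with a median of 0.67, and the shares 25.8% against 18.2% and 1.29% against 16.3%.

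**Figure D1:**
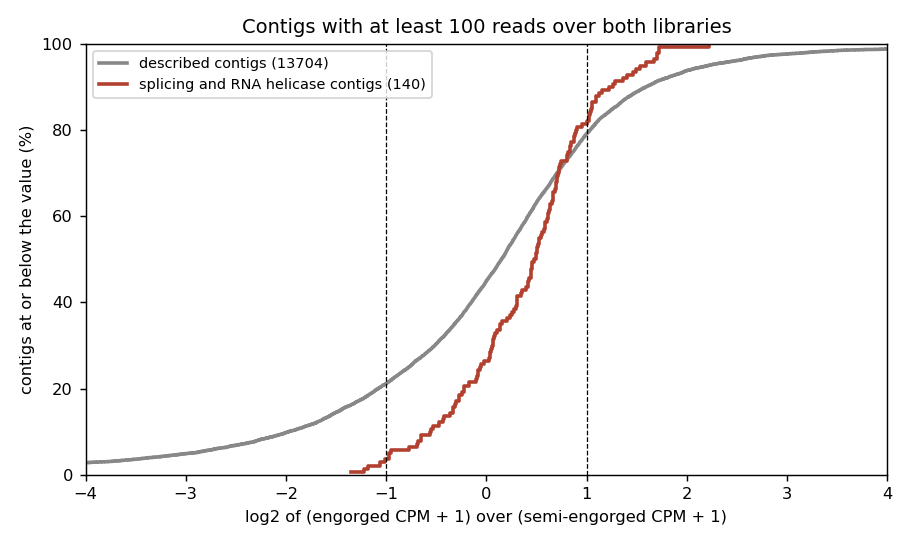
Cumulative share of contigs (%, vertical axis) by log2 fold (horizontal axis, from -4 to 4) for 140 members and 13704 described contigs with at least 100 reads over both libraries, with dashed lines at the thresholds of -1 and 1. The curve of the members is steeper, starts at -1.35, and stands 3.57% high at -1 where the other curve stands at 21.2%.

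The summed reads of all members came to 0.461% of the engorged library (Wilson 95% interval 0.459% to 0.462%) and to 0.390% of the other (0.389% to 0.392%). Single members spanned a wide range of levels. The median member stood at 8.42 RPKM (reads per kilobase of contig and 1000000 reads) in the engorged and 6.15 RPKM in the semi-engorged library. The highest reached 268 RPKM in the semi-engorged library, and 14 tested members were under 1 CPM in both. By the role groups set from words in the names, snRNP contigs had 0 calls in the engorged direction and 1 in the semi-engorged direction, of 15. Names with helicase, DEAD or DEAH counted 16 and 1 of 73 (21.9% and 1.37%). Arginine-rich names counted 2 and 0 of 5, and other splicing factors 8 and 1 of 52 (15.4% and 1.92%). Names with hnRNP counted 0 and 0 of 2, and other ribonucleoproteins 1 and 2 of 8. In this order, from the snRNP contigs on, the medians were -0.064, 0.49, 0.88, 0.32, -0.18 and 0.28. The shares called over all contigs tested were 13.0% engorged and 15.5% semi-engorged. Over described contigs with at least 100 reads they were 20.9% and 21.2%, so the engorged share of the helicase names was near that background. The helicase words also took in contigs of other function, which hold 3 of the 16 engorged calls (contig_1079, contig_8026 and contig_21484). The finer roles used next were set after names and values were seen, and serve only to order the description.

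**Figure D2:**
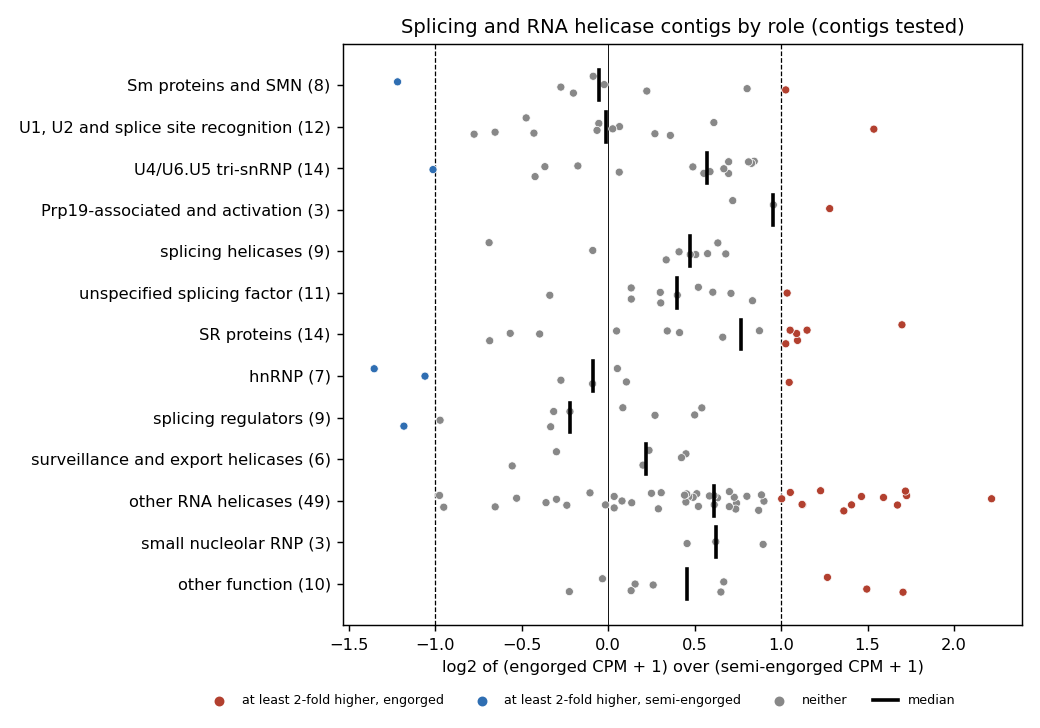
Log2 fold (horizontal axis) of each of the 155 tested members, 1 point a contig, by role with the number of contigs in brackets, thick bars marking medians and dashed lines the thresholds. Points past the right line number 13 of 49 for other RNA helicases and 6 of 14 for SR proteins, and the 5 points past the left line fall in 4 roles.

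Proteins of the snRNP core did not share a direction. The Sm proteins sit together, in equal copies, in a ring around most spliceosomal U RNAs. The Sm protein D2 (contig_5316) had 709 engorged and 1610 semi-engorged reads, 20.9 and 50.9 RPKM, and was 2.43-fold higher in the semi-engorged library (95% interval 2.23 to 2.66). SmE (contig_9440) had 434 and 209 reads, 18.5 and 9.55 RPKM, and stood on the other side with a ratio of 1.94 (1.64 to 2.30). SmG (contig_20838) had 882 and 837 reads and SmB (contig_2740) 710 and 812. SmD2 and SmE thus lay on opposite sides, with SmG and SmB between them. SMN, the survival motor neuron protein that helps load the ring, was called higher in the engorged library in contig_5722, with 881 against 376 reads, and its other contig (contig_25604) had only 41 and 25. The median of these 8 contigs, -0.054, changed sign with the scaling, from -0.25 to 0.15.

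Factors of U1, U2 and splice site recognition spread evenly around 0, with 6 contigs above and 6 below, and 1 was called. The U2 factor SF3B4, the subunit 4 of splicing factor 3b (contig_16267), had 427 and 102 reads, 7.85 and 2.01 RPKM, an engorged excess of 3.91-fold (3.14 to 4.90). Its partners in the same complex differed far less. Subunit 1 (contig_586), which contacts the branch site region, had 4836 and 4310 reads, a ratio of 1.05 (1.01 to 1.09), and subunit 2 (contig_7691) 2875 and 2079, a ratio of 1.29 (1.22 to 1.37). Splicing factor 3a subunit 3 (contig_658) had a ratio of 1.55 (1.45 to 1.66). Splicing factor 1, which first binds the branch point, stood on the semi-engorged side in both contigs, with log2 folds of -0.47 (contig_8125) and -0.77 (contig_3298). The U2AF large subunit, which binds the polypyrimidine tract, was near 0 in its 2 deeper contigs (0.027 and -0.054) and at -0.65 in contig_5243. The A protein of U1 (contig_8295) had 224 and 221 reads, and the U1-associated Prp40 match (contig_4326) 1074 and 1368. The contig named U2 snRNP splicing factor small subunit (contig_40209) had only 21 and 7 reads. SF3B4 was the 1 call among the 12 contigs of this role.

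Of 14 contigs of tri-snRNP proteins, 10 had log2 folds above 0 and 4 below. The 4 contigs matching U4/U6 Prp4 or another U4/U6 protein had log2 folds of 0.67 to 0.84, none past the threshold. The highest of them per length, Prp4 (contig_2575), had 2502 and 1307 reads, 40.1 and 22.4 RPKM, a ratio of 1.79 (1.67 to 1.91). Both Prp31 contigs, a protein that binds U4, lay at 0.59 and 0.83. A U-snRNP-associated cyclophilin (contig_3888) stood at 0.70, a Prp38A match (contig_19880) at 0.55 and the helicase DDX23 (contig_10786), which helps the tri-snRNP to join, at 0.49. On the other side was Brr2 (contig_11853), the U5 helicase that unwinds U4 from U6. It had 1097 and 2120 reads, 2.73 and 5.66 RPKM, and was 2.07-fold higher in the semi-engorged library (1.92 to 2.23). The 3 contigs named U5 snRNP subunit were at -0.17, -0.37 and -0.42, the first closer to 0 than the shift of 0.23, and Dim1 (contig_13385), another U5 protein, was at 0.065 with 99 and 86 reads. Without the 50 most abundant contigs in the totals, the log2 fold of Brr2 was -0.80 and no longer past the threshold.

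Proteins that join at activation and the splicing helicases were mostly on the engorged side. Isy1 (contig_5635), of the Prp19-associated complex, had 817 and 282 reads, an engorged excess of 2.70-fold (2.36 to 3.11). Cdc5 (contig_8637), a core protein of that complex, had a log2 fold of 0.96, and the SNW-family protein (contig_10808) one of 0.72. Of 9 contigs named splicing factor ATP-dependent RNA helicase, 7 were above 0, at 0.34 to 0.68, and none was called. The exceptions were contig_25776, with 457 reads in each library, and contig_1332, with 1412 and 2156 reads and a log2 fold of -0.69. Among 11 contigs placed in no narrower role, most named only as splicing factor or spliceosome protein, 10 were above 0 and 1, an mRNA splicing factor (contig_11140), was called higher in the engorged library with 1154 against 498 reads.

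Of 14 contigs of SR and SR-related proteins, 11 had log2 folds above 0 and 3 below. The calls among them were 6 (42.9%) in the engorged direction and 0 in the other, and the median log2 fold was 0.77. Of all contigs tested, 13.0% and 15.5% were called in these directions, and of described contigs with at least 100 reads 20.9% and 21.2%. The role was set after values were seen, so these shares cannot test for an excess. The largest difference was in an SR superfamily contig (contig_1246), with 10692 and 3037 reads, 29.5 and 8.97 RPKM, a ratio of 3.29 (3.16 to 3.42). ASF/SF2 (contig_12146), a general splicing factor that also sets the choice of splice sites, had 627 and 234 reads and a ratio of 2.50 (2.15 to 2.92). SC35 (contig_12358), a classical SR protein found in nuclear speckles, had 599 and 234 reads, a ratio of 2.39 (2.05 to 2.79). An arginine/serine-rich coiled-coil protein (contig_3814) had 2084 and 910 reads. The arginine/serine-rich factor of contig_14140 (29.8 and 15.6 RPKM) fell just short of the threshold at 0.88, while contig_14139 with the same best match passed it at 1.03. A further arginine/serine-rich contig (contig_837) lay at 0.41. With the shift of 0.23 removed, 1 of these contigs, contig_1246, stayed past the threshold, and the median was 0.55. The shares over all contigs tested were then 10.4% engorged and 17.8% semi-engorged, so the 42.9% above depends on the scaling.

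Matches to SRp20/9G8, a pair of small SR proteins, went both ways. The Amblyomma-matched contig (contig_4306) had 805 and 323 reads, 10.2 and 4.39 RPKM, an engorged excess of 2.33-fold (2.04 to 2.66). The Rhipicephalus-matched contig (contig_3583) had 7159 and 10771 reads, 155 and 249 RPKM, and was 1.61-fold higher in the semi-engorged library (1.56 to 1.66). The second stands at the highest RPKM of all SR contigs in both libraries. The summed level of the role was 567 and 454 CPM. RNPS1 (contig_3825), an SR-related protein of the exon junction complex, was also below 0, at -0.57, as was the scarce SRp55/B52/SRp75 match (contig_20098), with 13 and 33 reads, at -0.40. Whether the contigs of such a pair come from 1 gene was not tested, and reads could be divided between close copies.

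Among hnRNPs, the member with the most reads over both libraries was higher in the semi-engorged library. The match to hnRNP at 87F (contig_427), a Drosophila protein of the hnRNP A/B type, had 13178 and 31484 reads, 105 and 268 RPKM, a 2.56-fold difference (2.51 to 2.61). A 29 kDa ribonucleoprotein B match (contig_3779) had 3416 and 6699 reads and was 2.10-fold higher in the semi-engorged library (2.02 to 2.19). The hnRNP R match (contig_7888) went the other way, with 6202 and 2774 reads, 62.2 and 29.8 RPKM, a ratio of 2.09 (1.995 to 2.18). Other hnRNPs were near equal. The match to hnRNP at 27C (contig_4115), also abundant, had 97.1 and 90.2 RPKM, hnRNP L (contig_7134) 17.2 and 16.5, and hnRNP-F (contig_4182) 12.7 and 13.5. All 7 contigs placed with the hnRNPs added up to 672 and 1026 CPM in the engorged and semi-engorged library. Of this, contig_3779, whose name does not speak of hnRNP, held 59.0 and 124 CPM. The median of the 7, -0.089, changed sign with the scaling. Without contig_427, the share of reads of all members had a ratio of 1.32 between the libraries, against 1.18 with it. Leaving out instead the members of other function, described below, gave 0.407% and 0.373% of reads, a ratio of 1.09.

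Other regulators of splicing spread to both sides without a call in the engorged library. SFPQ, a proline and glutamine-rich factor, stood lower there in both contigs, which match different entries. One (contig_5208) had 2380 and 5103 reads, 16.9 and 38.8 RPKM, and was 2.30-fold higher in the semi-engorged library (2.19 to 2.41), and the other (contig_16602) had 1181 and 2213 reads and a log2 fold of -0.97. With totals that left out the 50 most abundant contigs, contig_5208 fell just short of the threshold, at -0.96. A contig matching epithelial splicing regulatory protein 2 (contig_3118), a regulator of epithelial exon choice in vertebrates, had 10084 and 6448 reads, 37.3 and 25.6 RPKM, and lay at 0.54. The KH-type splicing regulatory protein was at -0.22 and -0.31, and WTAP (contig_14554), a subunit of the complex that methylates adenosine in mRNA, at -0.33. YT521-B, a reader of that mark, lay at 0.085, 0.27 and 0.50 in 3 contigs.

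**Figure D3:**
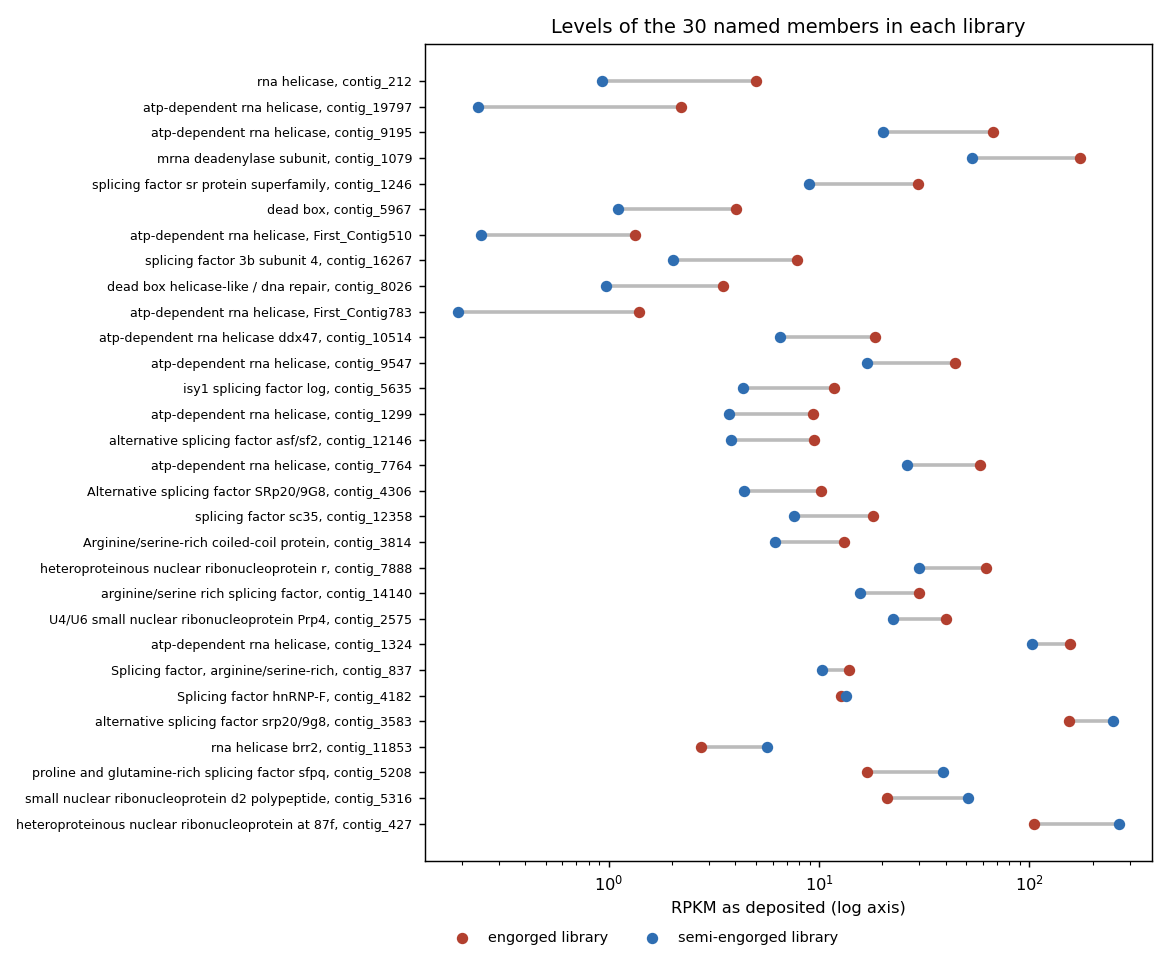
RPKM as deposited (log axis) of the 30 named members in the engorged (red) and the semi-engorged (blue) library, ordered by log2 fold, with a grey line joining the libraries. Members at the bottom, from hnRNP at 87F to Brr2, were higher in the semi-engorged library, and the members with the largest folds include First_Contig510 and contig_19797, both at or below 2.21 RPKM.

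RNA helicases whose names give no role in splicing, surveillance or export held 13 of the 27 calls in the engorged direction and 0 of the 5 in the other. The 13 are 26.5% of 49 tested contigs, against 13.0% of all contigs tested and 20.9% of described contigs with at least 100 reads. This role was set after values were seen, so its share cannot test for an excess. In the word group of helicase, DEAD or DEAH names the engorged share was 21.9%. Of the 13, contig_19797 and contig_26416 share a best-matching protein, as do First_Contig510 and contig_22085. The median log2 fold of the role was 0.61. With the shift of 0.23 removed, 10 were called in the engorged direction and 2 in the other. At that setting 10.4% and 17.8% of all contigs tested were called. The largest log2 fold of all members, 2.22, belonged to an RNA helicase contig (contig_212) with 1546 and 268 reads, a ratio of 5.38 (4.73 to 6.15), at 5.0 and 0.929 RPKM. At higher levels, contig_9195 had 7695 and 2144 reads, 67.1 and 20.04 RPKM, a ratio of 3.35 (3.19 to 3.52). Contig_9547 had 44.5 and 16.9 RPKM and contig_7764 had 58.0 and 26.2 RPKM. All 4 are named only as RNA helicases, so no function is given for them.

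Some helicases carry a more specific name. DDX47 (contig_10514), a helicase of ribosomal RNA processing, had 1434 and 471 reads, 18.4 and 6.48 RPKM, an engorged excess of 2.84-fold (2.56 to 3.16). DDX54 was covered by 5 contigs, all on the engorged side at 0.45 to 0.74. Abstrakt, a DEAD-box protein known from Drosophila, was called higher in 1 contig (contig_5995, 965 and 406 reads), and its other contig, with 101 and 31 reads, was at 0.80. The 3 U3 small nucleolar ribonucleoproteins, which act in ribosomal RNA processing, were likewise above 0, at 0.46, 0.62 and 0.90, with none called. The most abundant helicase (contig_1324), named no further, had 155 and 103 RPKM and lay at 0.59.

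Large ratios also came from scarce contigs. An ATP-dependent helicase (contig_19797) had 208 and 21 reads, a ratio of 9.25 (5.89 to 15.3), First_Contig783 had 164 and 21, a ratio of 7.29 (4.61 to 12.1), and First_Contig510 had 262 and 45, a ratio of 5.43 (3.95 to 7.63). All were at or below 2.21 RPKM. A DEAD-box contig (contig_5967) had 1025 and 263 reads, 4.02 and 1.11 RPKM, and contig_1299 had 1240 and 463 reads. On the semi-engorged side, the DEAH-box contig_2441 had 2117 and 3935 reads and a log2 fold of -0.97, and First_Contig1178 had 1282 and 2362 reads at -0.95, both just short of the threshold. The 8 contigs that match 2 further DEAH-box proteins had at most 57 reads each over both libraries. They include the 4 members with too few reads to be tested, among them contig_54425 with 0 and 17 reads and contig_44251 with 9 and 0.

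Helicases of RNA surveillance and export had 0 of 6 contigs called. DDX19A (contig_4156), which acts in mRNA export, lay at 0.45, the mitochondrial helicase Suv3 (contig_11320) at 0.42, and the exosome helicases Ski2 (contig_2826) and Mtr4 (contig_9775) at 0.24 and 0.20. A factor of nonsense-mediated decay (named pNORF1) was on the semi-engorged side in both contigs, at -0.30 and -0.55. With the shift of 0.23 removed, the median of these contigs turned from 0.22 to -0.0034.

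The word pattern also took in 10 contigs of other functions. Among them is the member with the highest engorged RPKM, a subunit of an mRNA deadenylase (contig_1079). It was matched through the letters of its name, shortens poly(A) tails with its complex and is no DEAD-box protein. It had 27933 and 7960 reads, 175 and 53.4 RPKM, a ratio of 3.28 (3.19 to 3.36), and also holds more engorged reads than any other member. A helicase-like transcription and DNA repair factor was called higher in the engorged library in 2 contigs (contig_8026, 492 and 128 reads, and contig_21484, 177 and 37). The others, with log2 folds from -0.22 to 0.67, were 2 further deadenylase contigs, another contig of the repair factor, SMARCAL1, a topoisomerase-binding ligase, a tRNA-splicing endonuclease and an alpha-2-macroglobulin splice variant. Without these 10, the counts were 24 and 5 of 145, and the median stayed at 0.45. Those counts were 16.6% and 3.45% of members, against 13.0% and 15.5% of all contigs tested.

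Contigs that share a best-matching protein gave a look at consistency within these libraries, though they are no replicates. There were 21 proteins with at least 2 contigs of 50 reads or more, 49 contigs in all. In 19 of them all such contigs lay on the same side of 0. Since 73.6% of members with at least 100 reads were above 0, contigs of different proteins often share a side too. No such count was made for other proteins of the table. The median distance between the highest and lowest log2 fold of a protein was 0.28. The widest, 1.93, was the deadenylase subunit, where contig_1079 stood at 1.71 and the scarcer contig_21115 and contig_26957, with 49 and 48, and 88 and 105 reads, at -0.032 and -0.22. The next, 1.33, was the RNA helicase of contig_212, whose other contig (contig_9608, 1093 and 527 reads) lay at 0.89. With reads summed over each protein, 23 of 122 passed the threshold in the engorged direction and 5 in the other, beside 18.5% and 13.7% of 11417 proteins of the whole table.

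**Figure D4:**
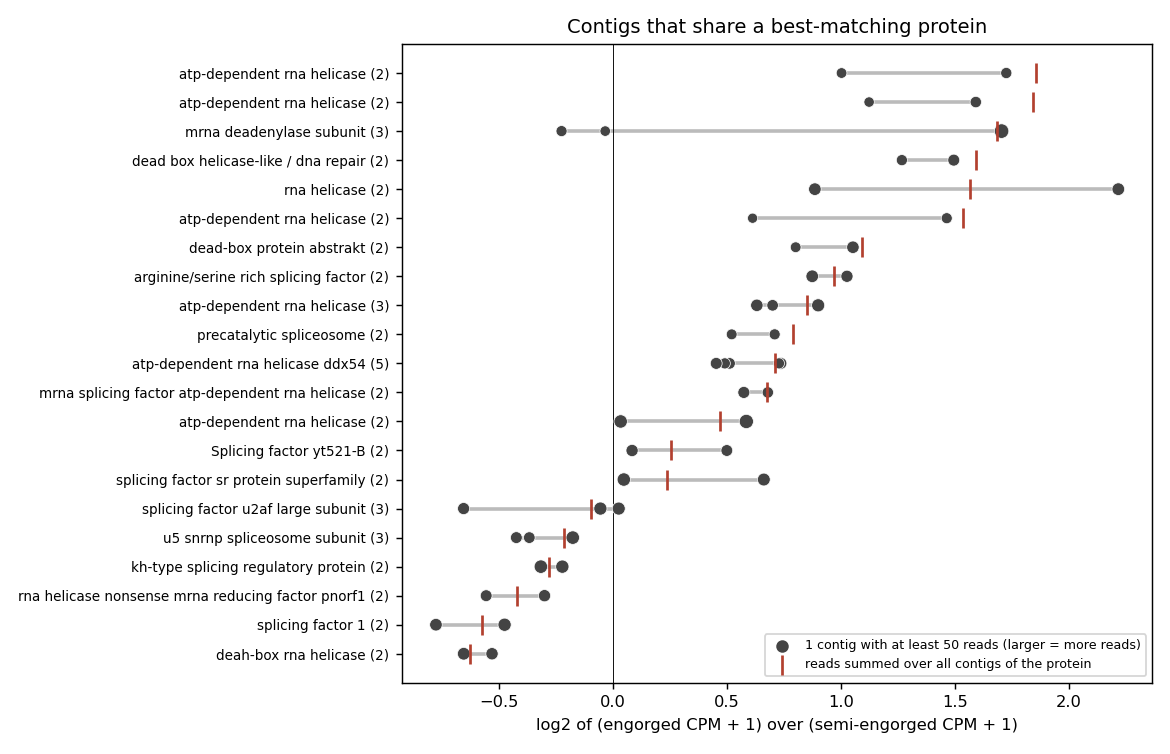
Log2 fold (horizontal axis) of each contig with at least 50 reads, for the 21 proteins matched by 2 or more such contigs (number in brackets), with a red bar for the reads summed over all contigs of the protein. In 19 proteins the points lie on 1 side of 0, and a red bar can lie outside its points because the added 1 CPM weighs less on a sum.

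Genes of mRNA processing outside the name rule were counted from word lists. For these and for the cell markers below, the shares over all contigs tested were 13.0% engorged and 15.5% semi-engorged. For 3' end formation and poly(A), the calls among 18 contigs were 4 in the engorged direction and 1 in the other, around a median of -0.20. PAN3, which helps to trim poly(A) tails, had 10030 and 2062 reads, 29.9 and 6.59 RPKM, a log2 fold of 2.15. The cleavage factor subunits Clp1 and Rna15 were higher in the engorged library at 1.30 and 1.10, and Rna14 was higher in the semi-engorged library at -1.49, so these partners lay on both sides. Exon junction, cap-binding and export counted 3 and 0 of 8 (median 0.68). A cap-binding subunit of translation factor 4F had 2694 and 191 reads, a log2 fold of 3.39, a cap-binding complex protein 1973 and 751 (1.24) and a THO subunit, of the export machinery, 329 and 77 (1.46).

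Decay factors counted 3 and 1 of 21 (median 0.20). Subunit 3 of the CCR4-NOT deadenylase complex lay at 1.49, another subunit at 1.31 and the decapping enzyme Dcp2 at 1.16, against -1.17 for an exosome subunit. Other RNA-binding proteins counted 6 and 1 of 27 (median 0.37). A musashi contig, a regulator of translation, had 740 and 344 RPKM (1.10), above every splicing or helicase member, and the CUGBP/bruno family, which acts on splicing and translation, was higher in the engorged library in 2 contigs at 1.86 and 2.01. The 2 RNA polymerase II contigs lay at 0.23 and 0.60, and no contig outside the name rule matched the words for splicing kinases and Prp19.

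Cell markers by name were set beside these values. Some sets differed between the libraries and others did not, and their part in the results was not tested. Contigs named for salivary secretion, the labelled tissue, summed to 12462 and 23881 CPM in the engorged and semi-engorged library, with 69 and 147 of 321 called. Muscle summed to 2875 and 2436 CPM (13 and 10 of 80), haemocyte and fat body to 2071 and 2060 (3 and 0 of 31), nerve to 1014 and 1613 (4 and 5 of 20), and midgut and cuticle to 210 and 472 (3 and 11 of 37). Both contigs named for haemoglobin, the word taken for host blood, were higher in the engorged library, at 29.6 against 5.81 CPM in sum. Whether they come from the host was not tested.

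**Figure D5:**
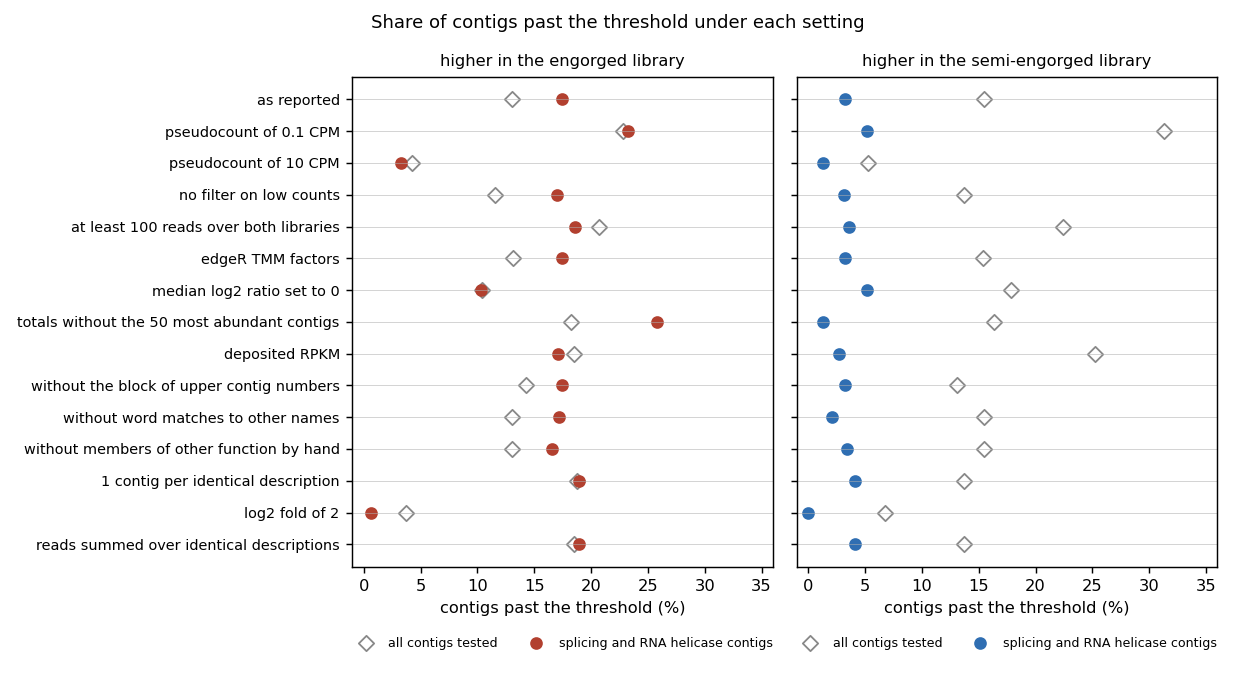
Share of contigs (%, horizontal axis) past the threshold in each direction, for the splicing and RNA helicase members (filled points) and all contigs tested (open diamonds), under each setting of the calculation. On the engorged side the points lie on either side of the diamonds, and on the semi-engorged side every filled point lies left of its diamond.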

How the data were processed

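For each library, 1 column of reads and 1 of RPKM was used. Per the file headers, the authors deposited read counts, which are whole numbers, and RPKM values per assembled contig. RPKM equals reads over contig length and column total, so lengths were derived from it (whole to within 0.000232 bases). The submitters' processing notes list TopHat and Cufflinks for both libraries, and CASAVA 1.8 for the engorged one, without saying what each did. Which programs assembled the contigs, searched for protein names and counted reads is not given in the sources used here. A name is that of the best-matching protein, often of another species, and neither contig sequences nor a genome were used here.

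Counts were scaled to CPM by column totals. The pseudocount was 1 CPM, the filter at least 20 reads over both libraries, and the threshold a log2 fold of 1. Ratios are CPM ratios with exact Clopper-Pearson 95% intervals from the reads in each library, and shares have Wilson 95% intervals. No p-value was computed, since each stage has 1 library. Reads carry no molecular identifiers, so intervals cover counting error only.

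The members and lists were chosen with earlier results of these data known. Named members were, per word group, the highest mean RPKM and the largest and smallest log2 fold, then the largest folds past the threshold, 30 in all, all of them with 100 reads or more in the library where they were higher and an informative name, and 1 contig per identical description unless contigs differed in direction. Contigs named beyond these were chosen after their values were seen. Most hnRNP names are spelled heteroproteinous in the table and so fell, by the fixed words, among other ribonucleoproteins. The 29 kDa ribonucleoprotein B fell there too and was added to the hnRNPs in the finer roles, though its name does not speak of hnRNP. The word Aly was read as a whole word, since it also matched catalytic: as first written, that list counted 9 and 3 of 36. The calculation was tested on simulated counts. Python 3.11.15, pandas 2.3.3, scipy 1.17.1 and edgeR 4.0.16 (TMM factors only) were used.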

Additional observations from a re-analysis of the deposited data

How the results depend on the processing

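The counts of members called in the engorged and in the other direction (27 and 5) and the median log2 fold (0.45) were recomputed under each alternative. A pseudocount of 0.1 CPM gave 36 and 8, and one of 10 CPM gave 5 and 2 with a median of 0.17. At 0.1 CPM these were 23.2% and 5.16% of members, against 22.8% and 31.3% of all contigs tested. At 10 CPM they were 3.23% and 1.29%, against 4.21% and 5.23%. Setting the median log2 ratio of contigs of 100 or more reads in each library to 0 gave 16 and 8 with a median of 0.23, and totals without the 50 most abundant contigs gave 40 and 2 with a median of 0.67. A threshold of log2 2 left 1 and 0, beside 3.68% and 6.72% of all contigs tested. Without the names grouped as other ribonucleoproteins, which include most hnRNPs, and arginine-rich names that do not speak of splicing, the counts were 25 and 3. These were 17.2% and 2.07% of members, against 13.0% and 15.5% of all contigs tested. The deposited RPKM gave 25 and 4 of 146, or 17.1% and 2.74%, against 18.5% and 25.2% of the 38454 contigs tested in RPKM. TMM factors, no filter and leaving out the block of upper contig numbers, which holds 0 tested members, each kept 27 and 5. The shares over all contigs were then 13.1% and 15.4% with TMM factors, 11.5% and 13.7% without the filter, and 14.3% and 13.1% without the block. Of the 27 engorged calls, 16 stayed with the shift removed, 5 with a pseudocount of 10 and 22 in RPKM. Of the 5 semi-engorged calls, 2 stayed without the 50 most abundant contigs. No called member changed sign under a pseudocount, filter, scaling or unit. The log2 folds of 12 more members lay from 0.75 to under 1, and the cause of the changes beyond these constructions was not tested. Leaving out members of other function and using 1 contig per identical description were run too, the first added after the data were seen, and gave 24 and 5, and 23 and 5. The first counts were 16.6% and 3.45% of members, against 13.0% and 15.5% of all contigs tested. The second were 18.9% and 4.1%, against 18.8% and 13.7%. No paired analysis was possible because each stage has 1 library.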
